A study of Homo sapiens with 12 samples.

Results

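Knockdown of SMARCA4 in the absence of drug was examined in Z-138, an established human mantle cell lymphoma line. Cells carrying an shRNA against SMARCA4 were compared with cells carrying a control shRNA, with 3 libraries in each group. All 6 libraries came from cells cultured with doxycycline and DMSO, the vehicle, and they make up 6 of the 12 samples of the series. The other 6 samples hold the same constructs with doxycycline, 3 µM ibrutinib, which blocks the kinase BTK, and 3 µM venetoclax, which blocks the survival protein BCL2. Those libraries helped to estimate the spread between replicates and gave the effect of knockdown in cells the DMSO comparison did not use. The genes described are all rows of the deposited count table, chosen by the 2 groups of columns and not by any measured value. Of 13820 genes in the table, 12602 had enough counts to be tested. All samples are of 1 cell line, and the number of shRNA sequences or clones is not given in the sources used here. Knockdown goes with its construct in every library, so effects of SMARCA4 loss and other effects of the construct cannot be told apart. No label tells if the 3 libraries of a group are from separate cultures. The p-values therefore reflect the spread between these libraries alone, which may be technical.

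SMARCA4, also known as BRG1, is an ATPase that drives the SWI/SNF complex, which moves and evicts nucleosomes so that transcription factors can reach enhancers and promoters. A SWI/SNF complex holds either SMARCA4 or its paralogue SMARCA2 as its motor, together with shared core subunits and with ARID1, PBRM1 or GLTSCR1 family subunits that define its different forms. Mantle cell lymphoma is a tumour of mature B cells that typically expresses cyclin D1 from a translocated CCND1 gene and often the transcription factor SOX11. The defining markers were present. CCND1 stood at 4890, 4440 and 4100 CPM in control libraries and 3630, 3420 and 3610 CPM in knockdown libraries, where CPM is the gene's count relative to the scaled library total. PAX5, a transcription factor that defines the B lineage, stood at 80.3, 78 and 79.9 and 69.9, 68.4 and 72.8 CPM. MS4A1, CD79A and CD79B, which are B cell surface markers, were also detected in all 6 libraries.

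The control libraries held 10151679, 8307729 and 8480698 counts and the knockdown libraries 9159780, 9086910 and 22528537 counts. The third knockdown library was therefore the deepest of the series. On the first principal component of the 6 libraries, which held 64.8% of the variance, control libraries lay between 29.3 and 29.6 and knockdown libraries between -29.9 and -28.9. The second component held 11.2% of the variance and spread the libraries within groups. Libraries were read from the 3' end of mRNA, so a gene's count does not grow with its length. The strand setting of the counting is not given in the sources used here, so reads of a gene and of an antisense partner cannot be told apart. A low count is not always a low transcript level in this table. GAPDH, a glycolytic enzyme of every cell that was picked out after its values were seen, stood at 3, 3.02 and 3.22 CPM in control libraries.

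Many genes differed between knockdown and control cells by small amounts and fewer by large ones. At an adjusted p of 0.05 in edgeR's quasi-likelihood test, 3940 of the 12602 genes tested changed (31.3%). Of these, 1899 were higher in knockdown cells (15.1%) and 2041 were lower (16.2%), and these are the shares against which each gene group below is read. "Rose" and "fell" are used only for genes past that threshold. Changes under 0.5 on the log2 scale made up 971 of the higher and 1199 of the lower genes. At least 2-fold changes numbered 325 higher (2.58% of genes tested) and 431 lower (3.42%). A log2 change of 3 or more was reached by 24 higher and 51 lower genes. The median log2 fold change over all genes was 0.004. Groups did not overlap, so that all knockdown libraries lay on 1 side of all control libraries, for 42.9% of genes tested.

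The direction of change went with expression level and with gene type. Among the 1207 genes with a mean log2 CPM above 7, 35% were lower and 11.9% higher in knockdown cells. Between 3 and 5, the balance turned to 18.5% higher and 12.8% lower. Of 10640 protein-coding genes tested, 16.5% were higher and 17.8% lower. Long intergenic noncoding RNAs had 9.42% higher and 10.4% lower of 308, antisense RNAs 5.82% and 4.82% of 498, and processed transcripts 8.05% and 21.8% of 87. Of 22 mitochondrial tRNA rows, 9 were lower and 0 higher. Median log2 fold changes by nuclear chromosome lay between -0.035 and 0.062 and that of the mitochondrial chromosome was -0.161.

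**Figure D1:**
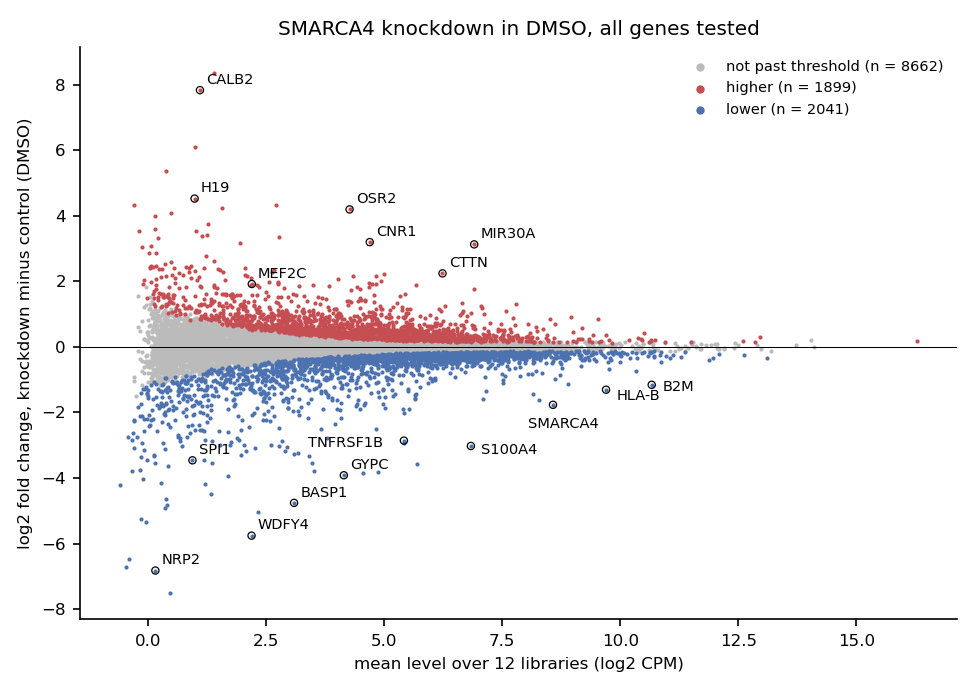
Log2 fold change of knockdown against control in DMSO (vertical axis) against mean log2 CPM over the 12 libraries (horizontal axis), 1 point per gene tested, red for the 1899 higher and blue for the 2041 lower genes past an adjusted p of 0.05. The circled genes are described in the text; at the right, among highly expressed genes, blue points outnumber red, and fitted values of genes with 0 counts in a group (CALB2, NRP2) depend on the prior count of the fit.

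SMARCA4 (ENSG00000127616) stood at 577, 599 and 555 CPM in control libraries and at 177, 174 and 159 CPM in knockdown libraries. No knockdown library reached the lowest control library, and 29.4% of the control level remained (log2 fold change -1.77, SE 0.056, edgeR adjusted p = 1.99e-21). SMARCA2, the alternative motor, fell too, from 84.7, 84.9 and 83.8 to 62.6, 58.9 and 57.5 CPM (log2 fold change -0.51, SE 0.073, edgeR adjusted p = 1.77e-06). Of 28 SWI/SNF subunits tested, 7 rose and 5 fell, with a median log2 fold change of 0.09. Leaving out the deepest library and a library whose column was assigned by elimination, an alternative added after seeing the data, left 4 higher.

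The fall of SWI/SNF genes other than the motors was steepest for BCL11A, a zinc finger protein of B and neural cells counted among the subunits, which went from 23.4, 23.7 and 19.7 to 11, 11.6 and 12.5 CPM (log2 fold change -0.91, SE 0.11, edgeR adjusted p = 1.41e-07). ACTB, the actin subunit, also fell, by 0.25 on the log2 scale. Among subunits that rose, SMARCD3 went from 10.8, 11.8 and 12.1 to 25.8, 21.9 and 20 CPM (log2 fold change 0.95, SE 0.12, edgeR adjusted p = 1.45e-07). BCL7A, at 416, 403 and 419 CPM in control and 568, 593 and 543 CPM in knockdown libraries, rose by a log2 of 0.46. GLTSCR1, a subunit of the non-canonical form, rose by 0.64. Several other subunits that are often mutated in cancer did not pass the test. ARID1A had a log2 fold change of 0.10 (edgeR adjusted p = 0.441), and its libraries overlapped. The values of ARID1B, PBRM1, SMARCB1, SMARCC1 and SMARCC2 were 0.10, 0.10, -0.16, 0.088 and 0.20. SMARCC2 and SMARCB1 lay near the threshold (edgeR adjusted p = 0.0558 and 0.0583). SMARCC2 passed without the first control library (edgeR adjusted p = 0.0189) and SMARCB1 without the second (edgeR adjusted p = 0.0224). Each also passed under other settings, such as the 6 DMSO libraries alone for SMARCC2 (edgeR adjusted p = 0.0427) and limma-voom for SMARCB1 (adjusted p = 0.0499).

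Other chromatin regulators moved upward more often than downward. Of 22 subunits of other remodelling complexes tested, 7 rose and 1 fell, against 15.1% and 16.2% of all genes. CHD7, a remodeller of enhancers, went from 62.9, 65.8 and 60.2 to 126, 128 and 121 CPM (log2 fold change 0.98, SE 0.063, edgeR adjusted p = 6.74e-14), and its groups did not overlap. CHD4, the motor of the NuRD complex, was the member that fell, by 0.41 on the log2 scale, and 2 members were lower without the second or the third control library. Of 38 polycomb, histone methylation and DNA methylation genes, 13 rose and 6 fell. KDM5B, a demethylase of histone H3 lysine 4, rose from 67.4, 66.9 and 64.3 to 134, 137 and 133 CPM (log2 fold change 1.02, SE 0.063, edgeR adjusted p = 2.19e-14). PCGF5, a subunit of polycomb repressive complex 1, rose by 1.17, the DNA methyltransferase DNMT3A by 0.64 and the methylcytosine dioxygenase TET1 by 0.75.

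The 15 largest falls among genes of at least moderate level (mean log2 CPM of at least 3, no overlap between groups) ran from -4.76 to -2.51 on the log2 scale. BASP1, a membrane-attached signalling protein, stood at 17, 15.6 and 18 CPM in control and 0.875, 0.326 and 0.621 CPM in knockdown libraries (log2 fold change -4.76, SE 0.22, edgeR adjusted p = 1.99e-17). GYPC, glycophorin C, which ties the membrane to the spectrin skeleton, went from 33.6, 32.1 and 36.4 to 2.3, 2.82 and 1.95 CPM (log2 fold change -3.92, SE 0.14, edgeR adjusted p = 1.56e-20). S100A4, a calcium-binding protein, went from 201, 202 and 214 to 29.4, 23.6 and 23.8 CPM (log2 fold change -3.02, SE 0.079, edgeR adjusted p = 1.75e-23). Every knockdown library of these 3 genes lay far below the lowest control library.

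Other genes among the 15 act in lymphocyte adhesion and migration. CYTIP, which binds cytohesin and regulates integrin adhesion, fell from 24.9, 20.2 and 23 to 1.53, 2.06 and 1.46 CPM. FAM65B, which restrains lymphocyte migration, fell from 47.3, 45.6 and 45.5 to 3.83, 3.04 and 2.97 CPM. GPR183, an oxysterol receptor that positions B cells in lymphoid follicles, fell from 24.8, 24.3 and 24.9 to 2.3, 2.39 and 2.53 CPM (log2 fold change -3.33, SE 0.14, edgeR adjusted p = 3.9e-18). Further members of the 15 were the muscle gene MYOM2 (-3.83), the transcription factor CREB5 (-3.55), the T cell receptor subunit CD3G (-3.28), the microtubule protein MAP2 (-3.23), RPRML (-2.92), the TNF receptor TNFRSF1B (-2.86), the ARF6 exchange factor PSD4 (-2.78) and the actin-binding protein COTL1 (-2.51).

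The 15 largest rises were smaller, from 1.87 to 4.19 on the log2 scale. OSR2, a zinc finger transcription factor of the odd-skipped family, stood at 2.1, 1.57 and 2.15 CPM in control and 37.6, 35 and 35.4 CPM in knockdown libraries (log2 fold change 4.19, SE 0.14, edgeR adjusted p = 1.41e-20). CNR1, the cannabinoid receptor of brain and some B cells, went from 4.8, 5.07 and 3.7 to 37.6, 44.3 and 42.9 CPM (log2 fold change 3.20, SE 0.12, edgeR adjusted p = 1.47e-19). CTTN, cortactin, an activator of branched actin assembly, went from 22.5, 24.9 and 26.4 to 119, 117 and 113 CPM (log2 fold change 2.24, SE 0.071, edgeR adjusted p = 1.99e-21). In each, the lowest knockdown library lay far above the highest control library. The other members were ARPP21 (2.23), the coronin CORO2A (2.18), the profilin PFN2 (2.17), the kisspeptin receptor KISS1R (2.07), the potassium channel KCNK12 (2.01), the plasma cell antigen SDC1 (1.96), RGAG4 (1.92), PLAC8 (1.91), the spindle protein NUMA1 (1.90), the semaphorin SEMA4C (1.89) and HRC (1.87).

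The third largest rise was of the row of MIR30A, a microRNA gene, from 19.9, 19.9 and 28.3 to 193, 213 and 187 CPM (log2 fold change 3.13, SE 0.11, edgeR adjusted p = 1.56e-20). The assay primes on poly(A) tails, so these counts are of a polyadenylated transcript over the locus and not of the mature microRNA, which was not measured. The mature products of the hairpin are shown from RefSeq, GRCh38.p14, minus strand of chromosome 6 (chr6:71403595-71403616 and chr6:71403554-71403575), because the seed, bases 2 to 8 in capitals, is what pairs with target messages:
hsa-miR-30a-5p: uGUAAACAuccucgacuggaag
hsa-miR-30a-3p: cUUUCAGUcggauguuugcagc
The 2 arms have different seeds, so a target of one is not by that fact a target of the other.

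Some genes passed from clear expression to near silence. With a group mean under 1 CPM on one side and at least 5 CPM on the other, 16 genes were lost in knockdown cells and 3 appeared. WDFY4, needed in dendritic cells for cross-presentation and expressed in B cells, fell from 8.9, 8.69 and 8.36 to 0.219, 0.217 and 0.0887 CPM (log2 fold change -5.76, SE 0.36, edgeR adjusted p = 3.09e-14). GCNT1, which starts core branches on O-glycans, fell from 5.6, 7.85 and 6.09 to 0.109, 0.217 and 0.621 CPM. SP140, a bromodomain protein of immune cells, fell from 10.3, 9.42 and 10.7 to 0.109, 0.543 and 0.266 CPM. TBX21, the transcription factor T-bet, fell from 8, 8.09 and 9.67 to 0.875, 0.868 and 0.842 CPM. Of the other lost genes, PDE9A (-2.90), AMICA1 (-3.17) and MACC1 (-3.0) fell likewise.

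The 3 genes that appeared were B4GALNT1, CD1D and TLE2. B4GALNT1, a ganglioside synthase, rose from 0.5, 0.242 and 0.716 to 10.1, 9.55 and 10.4 CPM. CD1D, which presents lipids to natural killer T cells, rose from 0.4, 0.362 and 0 to 5.36, 5.32 and 4.92 CPM (log2 fold change 4.23, SE 0.44, edgeR adjusted p = 4.33e-09). TLE2, a Groucho family corepressor, rose from 1, 0.725 and 0.358 to 7.33, 6.51 and 5.81 CPM. In all 3 genes the groups did not overlap.

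B cell surface antigens fell as a group. Of 20 tested, 13 fell and 0 rose, against 16.2% and 15.1% of all genes, and the median log2 fold change was -0.61. Summed over the list, the level was 1040 to 1080 CPM in control libraries and 625 to 644 CPM in knockdown libraries. In these bulk samples, fewer cells with a gene and less RNA per cell cannot be told apart. MS4A1, which encodes CD20, fell from 192, 183 and 185 to 75.5, 70.8 and 72.6 CPM (log2 fold change -1.36, SE 0.057, edgeR adjusted p = 1.8e-18). CD52, a small glycoprotein anchored in the membrane, fell from 16.1, 13.5 and 13.1 to 2.41, 0.76 and 2.31 CPM (log2 fold change -2.87, SE 0.20, edgeR adjusted p = 7e-13). No knockdown library reached a control library for these antigens.

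Costimulatory and adhesion antigens of B cells were among the falls. CD86, the ligand of CD28 on T cells, went from 4.3, 3.74 and 3.46 to 0.766, 0.326 and 0.754 CPM (log2 fold change -2.54, SE 0.35, edgeR adjusted p = 8.42e-07). CD48, a ligand of the SLAM receptor CD244, went from 10.5, 12.9 and 11.2 to 2.95, 3.37 and 4.34 CPM. CD38, an ectoenzyme of germinal centre and plasma cells, went from 7.5, 7.25 and 6.45 to 1.97, 2.5 and 3.19 CPM. The tetraspanins CD81 and CD53 fell by 0.51 and 0.58, CD84 by 0.75 and CD40 by 0.53 on the log2 scale. CD79A and CD79B, the signalling chains of the B cell receptor, fell by unequal amounts. CD79B went from 63.6, 62.3 and 65.3 to 35.9, 33.4 and 37.1 CPM and CD79A from 83.4, 78.1 and 78.8 to 59.2, 60.8 and 60.3 CPM, log2 fold changes of -0.84 and -0.42. Of the members that did not pass, CD83 had a log2 fold change of -0.25 (edgeR adjusted p = 0.121) and CD37 of 0.23 at a level of 2.3, 1.45 and 2.15 CPM in control libraries.

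**Figure D2:**
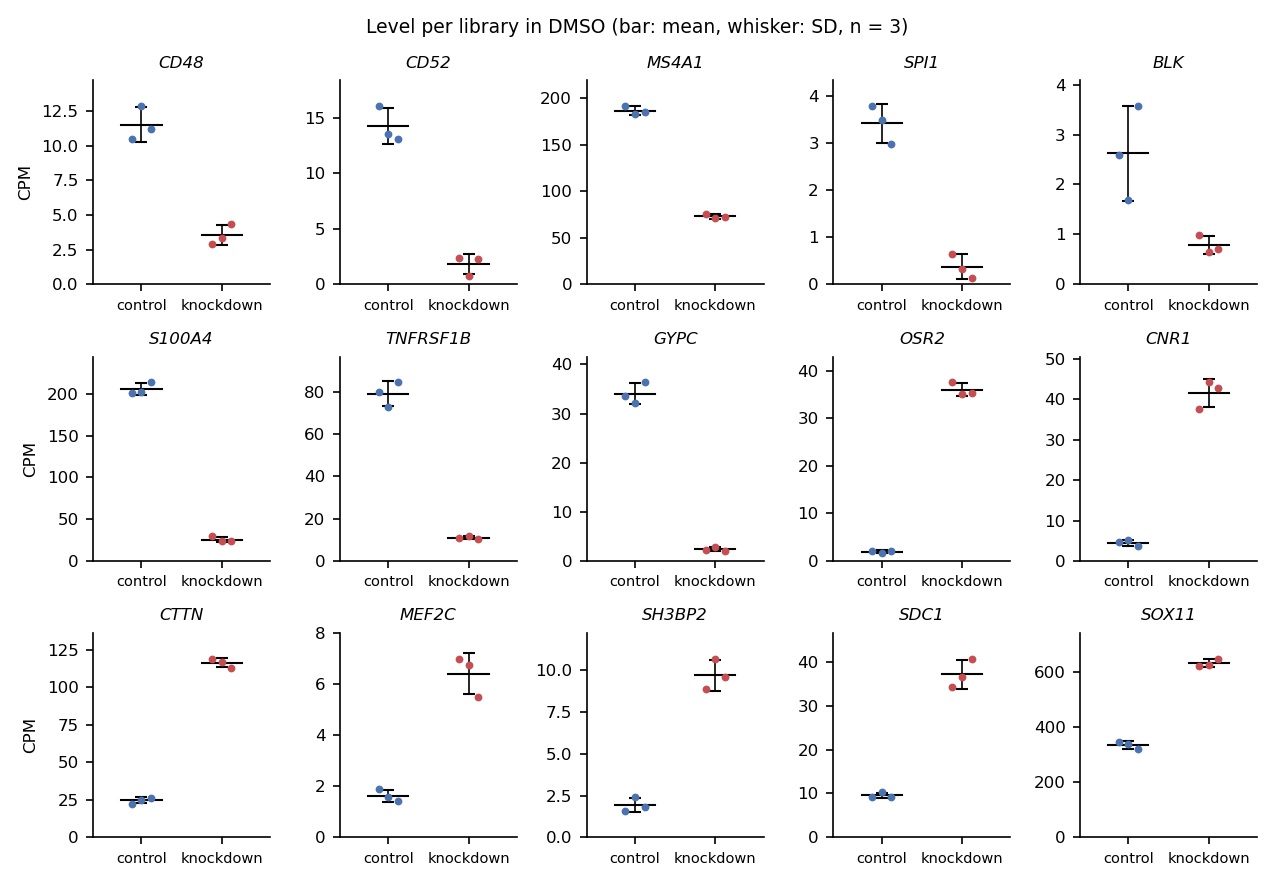
Level in CPM (vertical axes, each starting at 0) of 15 genes in the 3 control (blue) and 3 knockdown (red) libraries in DMSO, with the mean as a bar and the SD as a whisker. In every panel the groups do not overlap; the upper row shows B cell genes that fell, the middle row 3 genes that fell and 2 that rose, and the lower row genes that rose.

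Genes of signalling downstream of the B cell receptor were lower at many steps. Of 32 genes tested, 17 fell and 3 rose, with a median log2 fold change of -0.43. Among the kinases of the Src family that open the cascade, LYN, BLK and LCK were lower, BLK and LCK from low levels. LYN went from 52.6, 51.7 and 57.8 to 34.7, 38.4 and 31.9 CPM (log2 fold change -0.64, SE 0.082, edgeR adjusted p = 2.3e-07), BLK from 2.6, 1.69 and 3.58 to 0.984, 0.651 and 0.709 CPM and LCK, best known in T cells, from 3.8, 2.9 and 3.7 to 1.53, 0.977 and 1.24 CPM. BTK, the target of ibrutinib, fell from 49.1, 48.1 and 45.5 to 26.4, 29.9 and 26.8 CPM (log2 fold change -0.79, SE 0.078, edgeR adjusted p = 1.59e-09). SYK, the kinase that binds the phosphorylated receptor chains, was at 48, 46.3 and 51 and 45.5, 47.3 and 45.6 CPM, and its groups overlapped (edgeR adjusted p = 0.496). The phospholipase PLCG2 had a log2 fold change of -0.13 and did not pass either.

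Phosphoinositide kinases and phosphatases of the cascade fell as well. PIK3CD, the catalytic subunit of the leukocyte PI3 kinase, went from 243, 239 and 235 to 134, 134 and 124 CPM (log2 fold change -0.88, SE 0.053, edgeR adjusted p = 1.73e-14), and its regulatory subunit PIK3R1 fell by 0.49. INPP5D, the phosphatase SHIP1, which opposes PI3 kinase, went from 66.3, 66.4 and 71.7 to 39.4, 39 and 36.2 CPM. PTPN6, the inhibitory phosphatase SHP1, went from 1.8, 2.29 and 2.63 to 0.219, 0.326 and 0.222 CPM (log2 fold change -3.11, SE 0.43, edgeR adjusted p = 1.08e-06). Activating and inhibitory parts of the cascade thus fell side by side. The adaptor DAPP1 fell by 1.42, the inhibitory adaptor DOK3 by 0.87 and the protein kinase C isoforms PRKCB and PRKCD by 0.99 and 0.44. SLA, an adaptor that lowers receptor levels, had 18 counts over the control libraries and 1 over the knockdown libraries, a ratio of 27.6 (95% counting interval 4.36 to 1150). The members that rose were SH3BP2, an adaptor for SYK and PLCG, from 1.6, 2.42 and 1.79 to 8.86, 10.7 and 9.58 CPM (log2 fold change 2.33, SE 0.23, edgeR adjusted p = 1.22e-09), GAB2 (1.03) and the calcium release channel ITPR2 (0.23). ITPR2 did not pass without the second knockdown library (edgeR adjusted p = 0.141) or without the third control library (edgeR adjusted p = 0.209).

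B cell transcription factors moved in both directions. Of 36 tested, 9 rose and 10 fell, and the median log2 fold change was 0.04. SPI1, which encodes PU.1, a master regulator of myeloid and B cells, stood at 3.8, 3.5 and 2.98 CPM in control and 0.656, 0.326 and 0.133 CPM in knockdown libraries (log2 fold change -3.46, SE 0.40, edgeR adjusted p = 3.25e-08). AFF3, a transcription elongation factor of lymphoid cells, fell from 16.5, 18.8 and 14.8 to 5.58, 3.47 and 3.37 CPM (log2 fold change -2.07, SE 0.17, edgeR adjusted p = 2.92e-11). FOXO1, which maintains germinal centre programmes, fell from 19.2, 18.6 and 16.5 to 8.31, 7.71 and 6.25 CPM. RUNX3 fell by 0.65, the B cell coactivator POU2AF1 by 0.81 and the inhibitor of E proteins ID2 by 1.02 on the log2 scale.

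Among the factors that rose, SOX11, the mantle cell lymphoma marker, went from 346, 341 and 321 to 623, 627 and 650 CPM (log2 fold change 0.92, SE 0.049, edgeR adjusted p = 1.06e-15). LEF1, a WNT effector of early B cells, went from 39, 42.4 and 40.2 to 77.2, 78.5 and 82.5 CPM (log2 fold change 0.98, SE 0.067, edgeR adjusted p = 3.32e-13). MEF2C, a target of B cell receptor signalling, went from 1.9, 1.57 and 1.43 to 7, 6.73 and 5.5 CPM (log2 fold change 1.92, SE 0.23, edgeR adjusted p = 6.62e-08). TCF4 and IKZF1 rose by 0.51 and 0.47. PAX5 had a log2 fold change of -0.17 (edgeR adjusted p = 0.0407) and did not pass when any 1 of the 6 DMSO libraries was left out (edgeR adjusted p between 0.059 and 0.144). EBF1 had a log2 fold change of -0.22 (edgeR adjusted p = 0.121, and 0.0315 with the deepest library thinned), and IRF4 of 0.10 with overlapping groups (edgeR adjusted p = 0.272). SPI1, MEF2C, IKZF1, POU2AF1 and EBF1 were picked out after their values were seen.

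Plasma cell genes moved in both directions. Of 17 tested, 3 rose and 8 fell. SDC1, the surface proteoglycan CD138, went from 9.3, 10.3 and 9.31 to 34.2, 36.6 and 40.7 CPM (log2 fold change 1.96, SE 0.11, edgeR adjusted p = 3.08e-15), and PRDM1, which encodes BLIMP1, from 6.8, 7.97 and 8.59 to 18.3, 16.2 and 19.2 CPM (log2 fold change 1.22, SE 0.13, edgeR adjusted p = 4.58e-09). XBP1, the secretory pathway regulator of plasma cells, stood at 36.7, 33.2 and 36.5 and 38.3, 36.8 and 33.6 CPM with overlapping groups. IGJ, the joining chain of polymeric antibodies, fell from 337, 320 and 324 to 180, 186 and 188 CPM, MZB1 by 0.28 and ELL2, an elongation factor of antibody genes, by 0.80 on the log2 scale.

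Genes of antigen presentation on HLA class I fell from heavy chains to peptide supply. Of 20 genes tested, 14 fell and 0 rose, and the median log2 fold change was -0.62. Summed over the list, the level was 5990 to 6290 CPM in control libraries and 3120 to 3230 CPM in knockdown libraries. HLA-B, a heavy chain, went from 1210, 1180 and 1230 to 500, 471 and 493 CPM (log2 fold change -1.31, SE 0.05, edgeR adjusted p = 1.47e-19) and HLA-C, another, from 310, 306 and 298 to 164, 166 and 166 CPM. Class I heavy chains share long stretches of sequence, and reads may be split among them, so their separate values are uncertain. B2M, the light chain that all of them need, has no such copy and went from 2440, 2220 and 2230 to 1000, 982 and 1100 CPM (log2 fold change -1.16, SE 0.061, edgeR adjusted p = 6.12e-16).

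Genes that supply peptides fell too. PSMB9 and PSMB8, catalytic subunits of the immunoproteasome, went from 77.1, 67.9 and 76.6 to 27.6, 21.6 and 24.4 CPM (log2 fold change -1.59, SE 0.086, edgeR adjusted p = 1.19e-15) and from 101, 103 and 109 to 64.2, 59.2 and 57.8 CPM. The proteasome activators PSME1 and PSME2 fell by 0.65 and 0.58. TAP1, a subunit of the peptide transporter, went from 13.4, 12.9 and 11.8 to 10.4, 7.71 and 9.18 CPM (log2 fold change -0.48, SE 0.14, edgeR adjusted p = 0.00638), while its partner TAP2 had a log2 fold change of -0.18 (edgeR adjusted p = 0.0876). With the deepest library thinned to the median total of the other libraries, TAP2 passed (edgeR adjusted p = 0.0437) and TAP1 did not (edgeR adjusted p = 0.0758). Tapasin (TAPBP) fell by 0.68, calnexin (CANX) by 0.43 and the trimming peptidase ERAP2 by 0.41. NLRC5, the transactivator of class I genes, fell from 34.4, 35 and 33.5 to 10.7, 9.66 and 9.49 CPM (log2 fold change -1.80, SE 0.10, edgeR adjusted p = 2e-15). Members that did not pass included HLA-E (-0.11), ERAP1 (-0.22) and calreticulin, CALR (0.17).

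Promoters of 3 genes from different steps of this pathway are shown because the letters of interferon or NF-kB response elements lie close to their starts. Each is the 250 bases before the transcription start in RefSeq, GRCh38.p14, 5' to 3' on the gene's strand: HLA-B at chr6:31357180-31357429 (minus strand), B2M at chr15:44711267-44711516 (plus strand) and TAP1 at chr6:32853705-32853954 (minus strand). Capitals mark matches on either strand to the core of the interferon-stimulated response element, which is GAAA, NN and GAAA with N any base, or to a narrowed NF-kB site, which is GGG, NN, TT, N and CC:
HLA-B: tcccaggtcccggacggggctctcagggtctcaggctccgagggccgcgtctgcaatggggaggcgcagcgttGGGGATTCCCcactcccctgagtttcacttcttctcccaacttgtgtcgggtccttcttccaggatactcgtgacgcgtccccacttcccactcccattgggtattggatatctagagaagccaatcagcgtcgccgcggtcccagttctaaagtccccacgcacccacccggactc
B2M: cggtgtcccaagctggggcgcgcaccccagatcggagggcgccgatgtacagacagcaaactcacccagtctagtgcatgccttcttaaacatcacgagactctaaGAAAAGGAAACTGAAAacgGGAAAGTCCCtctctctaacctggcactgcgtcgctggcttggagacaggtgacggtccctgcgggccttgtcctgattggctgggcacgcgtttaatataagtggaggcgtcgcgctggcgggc
TAP1: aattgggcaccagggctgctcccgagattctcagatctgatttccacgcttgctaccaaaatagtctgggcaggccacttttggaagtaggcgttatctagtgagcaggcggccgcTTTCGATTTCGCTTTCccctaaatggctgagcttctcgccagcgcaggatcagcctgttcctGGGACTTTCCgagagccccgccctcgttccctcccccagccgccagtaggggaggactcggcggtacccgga
In HLA-B the NF-kB letters GGGGATTCCC lie 177 to 168 bases before the start. B2M holds overlapping interferon element letters GAAAAGGAAA and GAAACTGAAA between 144 and 129 bases before the start, and NF-kB letters GGAAAGTCCC from 125 to 116. TAP1 holds TTTCGATTTC and TTTCGCTTTC, the same core on the other strand, between 134 and 119 bases before the start, and GGGACTTTCC from 72 to 63. Of the 16 class I genes with a promoter in the table, 8 held the interferon core and 5 the NF-kB letters within 250 bases before to 50 after the start. The core was in 2.67% and the NF-kB letters in 6.60% of the 8779 protein-coding genes tested that had a promoter there. It was also in 18 of the 35 interferon response genes, counted below, that had a promoter there, so it is not particular to class I genes. The class I genes with the core include ERAP1 and TAP2, which did not pass the test. A match is a description of letters and not of a bound factor.

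Interferon response genes were counted separately. Of 44 tested, 13 fell and 2 rose, and the median log2 fold change was -0.15. Without the first control library, 1 was higher. IFI16, a sensor of nuclear DNA, went from 68.1, 73.3 and 69.9 to 23.3, 23.7 and 28.2 CPM (log2 fold change -1.46, SE 0.089, edgeR adjusted p = 1.71e-14). IRF1, a transcription factor of the interferon response, went from 47.7, 47.9 and 47 to 26, 29.1 and 25.8 CPM (log2 fold change -0.83, SE 0.077, edgeR adjusted p = 4.02e-10). DTX3L, a ubiquitin ligase, fell by 1.0 and TRIM25, which activates the RNA sensor RIG-I, by 0.59. Other members did not pass. ISG15, a classic interferon-induced gene, had a log2 fold change of 0.20 with overlapping groups (edgeR adjusted p = 0.22). It was picked out after its values were seen.

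HLA class II presentation showed another pattern. Of 19 genes tested, 6 rose and 3 fell. CIITA, the transactivator of class II genes, went from 140, 142 and 143 to 216, 204 and 198 CPM (log2 fold change 0.54, SE 0.056, edgeR adjusted p = 3.87e-09). HLA-DQA1 rose from 36.5, 33.9 and 37.8 to 51.4, 48.3 and 62.9 CPM, and HLA-DMA, which loads peptides, by 0.46. HLA-DRA, the alpha chain of HLA-DR, stood at 972, 962 and 1050 and 988, 974 and 962 CPM with overlapping groups (edgeR adjusted p = 0.693). The invariant chain CD74 fell from 1560, 1420 and 1420 to 1150, 1170 and 1160 CPM, the protease CTSS that cuts it by 0.79, and the thiol reductase IFI30 by 1.27 on the log2 scale. IFI30 did not pass without the third knockdown library (edgeR adjusted p = 0.0685) or without the second control library (edgeR adjusted p = 0.0619). Class II beta chains are also near-identical copies, and their values are uncertain.

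**Figure D3:**
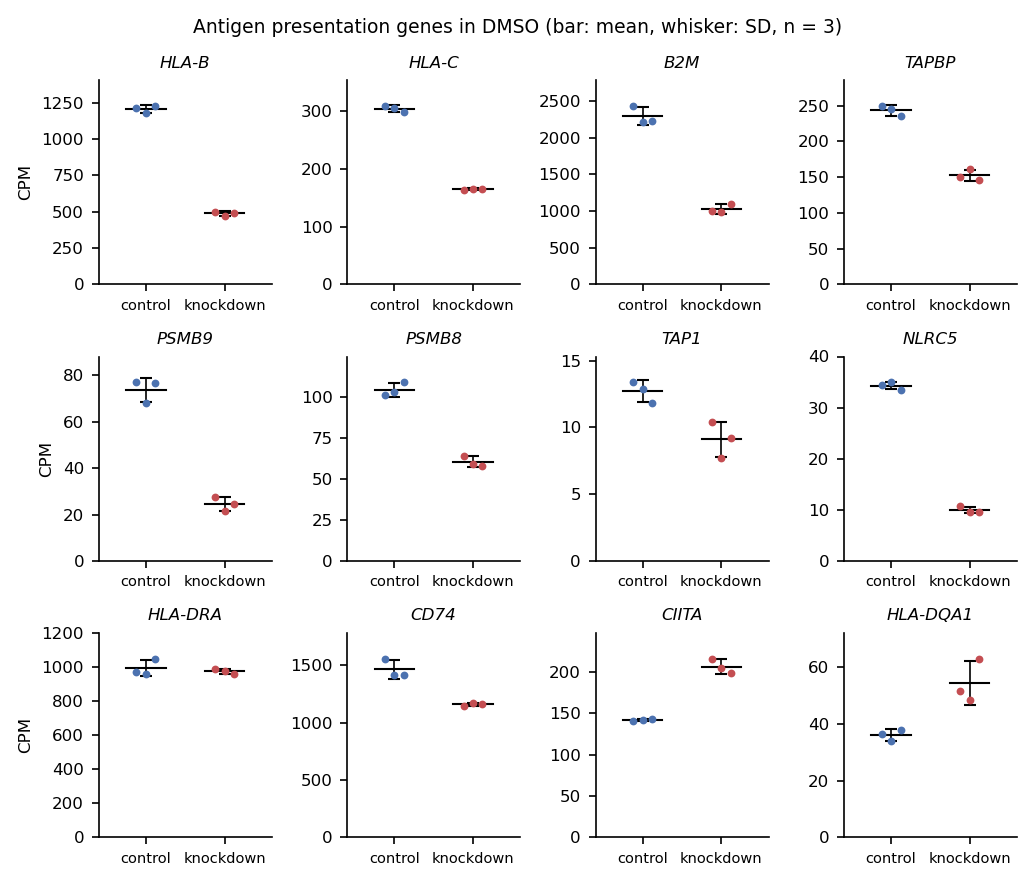
Level in CPM (vertical axes, each starting at 0) of 12 antigen presentation genes in the 3 control (blue) and 3 knockdown (red) libraries in DMSO, with the mean as a bar and the SD as a whisker. The upper and middle rows show class I genes, all lower in knockdown libraries; in the lower row HLA-DRA overlaps between groups, CD74 is lower, and CIITA and HLA-DQA1 are higher.

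Among receptors that connect the cell with its surroundings, more genes fell than rose. Of 17 TNF receptor family genes tested, 7 fell (41.2%) and 1 rose (5.9%), against 16.2% and 15.1% of all genes. TNFRSF1B went from 80.1, 72.9 and 84.7 to 10.8, 11.8 and 10.5 CPM (log2 fold change -2.86, SE 0.092, edgeR adjusted p = 2.16e-21), TNFRSF14, the receptor HVEM, from 1.6, 1.21 and 2.03 to 0.656, 0.217 and 0.532 CPM and TNFRSF13B, the receptor TACI, from 21.7, 17.5 and 19.7 to 7.11, 6.51 and 8.07 CPM. TNFRSF21, the death receptor DR6, was the member that rose, from 52.2, 47.2 and 47.1 to 105, 111 and 112 CPM (log2 fold change 1.16, SE 0.065, edgeR adjusted p = 2.2e-15). TNFRSF17, the plasma cell receptor BCMA, stood at 41, 37 and 44.6 and 41.8, 38.6 and 46.7 CPM with overlapping groups. On the ligand and adaptor side, 5 of 15 genes rose and 1 fell: LTB, lymphotoxin beta, rose from 5.6, 5.68 and 4.18 to 8.86, 10.3 and 10.2 CPM (log2 fold change 0.93, SE 0.16, edgeR adjusted p = 2.81e-05), BIRC3, an inhibitor of apoptosis bound to TNF receptors, by 0.56 and RIPK1 by 0.56, whereas TNFSF13B, the cytokine BAFF, fell by 0.94 (edgeR adjusted p = 0.0424). TNFSF13B did not pass when any 1 of the 6 DMSO libraries was left out (edgeR adjusted p between 0.0664 and 0.128), nor in DESeq2 (adjusted p = 0.12).

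Genes of the NF-kB pathway itself changed modestly. Of 20 subunits and regulators, 5 rose and 2 fell. TNFAIP3 (A20) and CYLD, deubiquitinases that dampen the pathway, rose from 21.5, 19.9 and 21 to 31.7, 31.3 and 29.3 CPM and from 20.4, 18.5 and 22 to 27.8, 27.6 and 30.4 CPM, and NFKB2, a subunit of the noncanonical arm, by 0.36. The canonical subunit RELA and the inhibitor NFKBIA had log2 fold changes of -0.059 and -0.079 and did not pass. Without the third control library, 3 members were higher and 1 lower. The lower members numbered 1 without the first control library and 0 without the first knockdown library.

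Of 21 cytokine and chemokine receptors, 6 fell (28.6%) and 1 rose (4.8%), against 16.2% and 15.1% of all genes. CCR7, which brings B cells to lymph nodes, went from 45.5, 46.6 and 48.7 to 22.2, 16.1 and 16.5 CPM (log2 fold change -1.38, SE 0.10, edgeR adjusted p = 1.22e-12). IL10RA, the ligand-binding chain of the interleukin-10 receptor, went from 8.6, 10.1 and 10.7 to 5.36, 2.71 and 3.64 CPM, and IL2RG, the common gamma chain, from 101, 97.6 and 88.2 to 58.1, 61.4 and 64.9 CPM. CXCR4, which holds mantle cells in marrow and nodes, fell by 0.19 (edgeR adjusted p = 0.00362) from 523, 500 and 486 to 453, 435 and 437 CPM. IL6ST, the signal chain of the interleukin-6 family, rose from 5.7, 5.56 and 4.89 to 9.73, 9.88 and 10.8 CPM, and 2 members were higher without the third control library. Of 8 cytokines, 5 fell, at low levels. IL10 had 61 counts over the control and 2 over the knockdown libraries, a ratio of 46.8 (95% counting interval 12.4 to 395). CCL5 went from 3.2, 3.02 and 2.15 to 0.547, 0.434 and 0.399 CPM and IL16 from 2.5, 2.78 and 1.31 to 0.437, 0.76 and 0.931 CPM, while HBEGF, a ligand of the EGF receptor, rose by 1.31. With a filter at 5 CPM in 3 libraries, 5 cytokines were tested and 2 fell.

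G protein-coupled receptors that steer lymphocytes split by gene. Of 26 tested, 11 fell (42.3%) and 4 rose (15.4%), against 16.2% and 15.1% of all genes. With the filter at 5 CPM, 7 of the 17 then tested fell. GPR18, a receptor of lymphoid cells, went from 23.7, 25.8 and 26.5 to 8.53, 7.82 and 7.23 CPM (log2 fold change -1.71, SE 0.13, edgeR adjusted p = 1.64e-12). S1PR1 and S1PR4, receptors of sphingosine 1-phosphate, moved apart: S1PR1, which draws cells into the blood, rose from 5.3, 3.14 and 3.58 to 11.6, 11.7 and 13.1 CPM (log2 fold change 1.59, SE 0.19, edgeR adjusted p = 7.78e-08), and S1PR4 fell from 3.5, 2.9 and 2.98 to 1.53, 1.3 and 1.06 CPM. P2RY10, a lysophosphatidylserine receptor, fell by 1.90 and LPAR5, a lysophosphatidic acid receptor, by 2.07. F2R, the thrombin receptor, rose from 0.9, 2.05 and 1.19 to 6.23, 7.82 and 5.1 CPM. Of 26 G protein subunits and RGS proteins, which end G protein signals, 6 fell and 4 rose, with GNG4 (-0.82), RGS7 (-2.03), RGS14 (0.70) and GNA11 (0.66) having the smallest adjusted p.

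Genes of the actin cytoskeleton changed often: of 73 genes tested, 34 fell and 21 rose, so 18 did not pass. CTTN, described above, had the smallest adjusted p (1.99e-21 in edgeR). CORO1A, the leukocyte coronin, fell from 73.8, 76.7 and 73.6 to 26.7, 24.1 and 24.8 CPM (log2 fold change -1.57, SE 0.074, edgeR adjusted p = 3.85e-17). LCP1, L-plastin, which bundles filaments in leukocytes, fell from 240, 236 and 244 to 116, 117 and 122 CPM (log2 fold change -1.02, SE 0.054, edgeR adjusted p = 6.12e-16), and WAS, which activates branched assembly in blood cells, from 77.8, 70.5 and 71.4 to 30.2, 26.5 and 25.5 CPM (log2 fold change -1.44, SE 0.078, edgeR adjusted p = 1.19e-15). CORO1A, LCP1 and WAS, all known from blood cells, fell while CTTN rose. Within the coronins, the leukocyte form CORO1A and CORO2A moved in opposite directions, the latter from 7.1, 7.25 and 7.04 to 32.4, 31.5 and 32.7 CPM. Among profilins, PFN2 rose from 10, 8.09 and 11.6 to 46.7, 41.1 and 45.4 CPM.

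Genes of S100 proteins, annexins and AHNAK proteins, which link membranes and the cytoskeleton, were mostly lower. Of 14 tested, 10 fell and 0 rose, with a median log2 fold change of -0.69. Beside S100A4, S100A6 went from 16.1, 14.5 and 16.9 to 7.77, 8.14 and 7.45 CPM (log2 fold change -1.04, SE 0.13, edgeR adjusted p = 2.08e-07). ANXA6, an annexin of membranes and endosomes, went from 38.7, 36.5 and 39.9 to 21.3, 16.4 and 17.7 CPM (log2 fold change -1.06, SE 0.091, edgeR adjusted p = 5.9e-11), and ANXA2 from 61.5, 66.2 and 63.1 to 45.6, 41.2 and 42.6 CPM. AHNAK, a giant scaffold bound by S100 proteins, fell by 0.79 and AHNAK2 by 1.15. Of 18 membrane skeleton genes, 6 fell and 4 rose. DMTN, dematin, fell by 1.47, next to GYPC, whereas the protein 4.1 family member EPB41L1 rose by 0.89.

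Of 34 intermediate filament, septin and microtubule genes, 9 fell and 6 rose. TUBB2B, a neuronal tubulin, went from 379, 406 and 428 to 157, 152 and 143 CPM (log2 fold change -1.43, SE 0.058, edgeR adjusted p = 8.43e-19) and TUBA1A rose from 226, 239 and 267 to 436, 425 and 444 CPM. Tubulin genes have near-identical copies, so their values are uncertain. The neuronal microtubule proteins MAP2 and MAPT (tau) moved apart, MAP2 from 16.3, 19.1 and 17.1 to 1.75, 2.5 and 1.6 CPM and MAPT from 1.1, 0.845 and 0.836 to 5.03, 4.02 and 4.83 CPM.

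Developmental signalling pathways changed by member. In the NOTCH pathway, 10 of 28 genes fell and 7 rose. The receptor NOTCH1 fell from 20.4, 24.6 and 22 to 12.4, 16 and 14 CPM (log2 fold change -0.66, SE 0.13, edgeR adjusted p = 0.000107), while NOTCH2 had a log2 fold change of -0.078 with overlapping groups. The ligands JAG1, JAG2 and DLL4 fell by 2.11, 1.12 and 2.56, and LFNG, a glycosyltransferase that tunes ligand choice, by 1.37. On the other side, DTX1, a target and regulator of NOTCH, rose from 75.5, 78.1 and 73.3 to 176, 169 and 172 CPM (log2 fold change 1.18, SE 0.062, edgeR adjusted p = 6.06e-16), NRARP by 0.80 and RBPJ, the transcription factor at the end of the pathway, by 0.33. HES1, the best known target, was at 2.4, 2.9 and 2.39 and 1.86, 1.63 and 1.51 CPM and did not pass (edgeR adjusted p = 0.121). With the filter at 5 CPM, 22 members were tested and 6 fell.

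WNT pathway genes rose more often, with 13 of 35 higher and 6 lower. The nuclear effectors moved apart: beside LEF1, TCF7L2 rose from 18.4, 17.8 and 19.2 to 39.4, 40.3 and 43.8 CPM (log2 fold change 1.17, SE 0.086, edgeR adjusted p = 1.65e-12), and TCF7 fell from 2.8, 2.42 and 2.75 to 0.328, 0.977 and 1.11 CPM. The corepressor TLE4 rose by 0.45, beside TLE2. The ligand WNT5B rose by 0.68 and WNT10A fell by 0.55. ROR1, a WNT5A receptor found on mantle cell lymphoma, fell from 7.9, 5.68 and 6.09 to 2.52, 2.39 and 2.48 CPM (log2 fold change -1.42, SE 0.22, edgeR adjusted p = 7.91e-06).

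Receptor tyrosine kinases and ephrins had 7 of 21 members lower and 4 higher (2 higher without the third control library). EPHB2 went from 54.4, 43 and 46 to 14.4, 11.6 and 15.6 CPM (log2 fold change -1.75, SE 0.10, edgeR adjusted p = 8.75e-15) and PTK7, a pseudokinase coreceptor of WNT, rose from 18.1, 21.6 and 21.4 to 36.6, 39.8 and 33.4 CPM (log2 fold change 0.84, SE 0.10, edgeR adjusted p = 1.42e-07). FGFR3 fell from 4.5, 3.86 and 3.34 to 0.656, 0.76 and 0.621 CPM and MET from 4.8, 3.5 and 2.86 to 0.875, 1.3 and 0.798 CPM, and TYRO3, a receptor for the bridging protein GAS6, rose by 1.11. Feedback genes of the ERK cascade depended on the deepest library: of 22, 5 were higher and 2 lower, and without the third knockdown library 0 were higher. Without the first control library, 3 were higher and 1 lower, and without the second knockdown library 1 was lower.

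Genes of matrix, adhesion and neuronal contact included several that were present in 1 group and nearly absent from the other. Of 39 extracellular matrix and protease genes, 12 fell and 5 rose. LGALS1, galectin-1, went from 25.6, 26.3 and 26.3 to 8.86, 5.43 and 6.87 CPM (log2 fold change -1.89, SE 0.12, edgeR adjusted p = 6.63e-14), TIMP1, an inhibitor of metalloproteases, from 1.8, 2.17 and 2.03 to 0.219, 0.217 and 0.0887 CPM (log2 fold change -3.64, SE 0.51, edgeR adjusted p = 1.31e-06) and the laminin LAMA5 from 11.4, 14.6 and 15.3 to 7.87, 6.19 and 6.61 CPM. Of 22 integrin and adhesion genes, 6 rose and 6 fell. ICAM3, the leukocyte adhesion molecule, fell from 8.8, 11.1 and 11.5 to 5.58, 2.61 and 3.68 CPM, and ITGB7, the integrin chain for homing to the gut, from 1.6, 2.66 and 2.39 to 0.437, 0.326 and 0.399 CPM. SDC3, a neural syndecan, had 3 counts over the control and 86 over the knockdown libraries, a ratio of 18.7 (95% counting interval 6.18 to 92.3). These counting intervals cover counting error only.

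Of 46 neuronal guidance and synapse genes, 11 rose and 10 fell, and with the filter at 5 CPM 6 of the 23 then tested fell. SEMA4C rose from 4.8, 3.26 and 4.77 to 15.4, 18.9 and 14.4 CPM (log2 fold change 1.89, SE 0.16, edgeR adjusted p = 3.97e-11), while PLXND1, a semaphorin receptor, fell from 16.2, 15.1 and 13 to 3.83, 3.47 and 3.9 CPM. NRP2, another coreceptor of semaphorins picked out after its values were seen, had 38 counts over the control libraries and 0 over the knockdown libraries, at least 19.4-fold lower when the knockdown group is set at 3 counts in all. CALB2, calretinin, a calcium buffer of neurons, was the reverse case with 0 counts in control and 119 in knockdown libraries, at least 25.8-fold higher on the same basis. Ion channels showed no common direction, with 14 of 62 higher and 16 lower. KCNK12 rose from 11.1, 11.2 and 13.8 to 51.4, 41.7 and 51.1 CPM (log2 fold change 2.01, SE 0.11, edgeR adjusted p = 1.23e-15), and KCNJ4, an inward rectifier, fell from 62.9, 59.9 and 60.5 to 24.9, 20.6 and 22.7 CPM (log2 fold change -1.43, SE 0.082, edgeR adjusted p = 4.88e-15). The sodium channel SCN3A fell from 11.5, 15.1 and 11.8 to 1.09, 2.06 and 1.46 CPM. Among 44 genes listed for cAMP signalling, 8 rose (18.2%) and 6 fell (13.6%), near the 15.1% and 16.2% of all genes. The phosphodiesterases PDE4B and PDE4D, which degrade cyclic nucleotides, fell by 2.53 and 2.94.

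Other transcription factor families were counted as well. Of 415 ZNF-named zinc finger genes, many of them KRAB repressors of transposable elements, 71 rose and 11 fell, that is 17.1% against 15.1% of all genes higher and 2.7% against 16.2% lower, and the median log2 fold change was 0.08. Without the first control library, 6 fell. ZNF703, a corepressor of epithelial cells, rose from 53.2, 52.5 and 59 to 190, 182 and 187 CPM (log2 fold change 1.76, SE 0.071, edgeR adjusted p = 8.4e-19), and the next by adjusted p, ZNF358, ZNF664 and ZNF263, rose by 0.96, 0.57 and 0.59. Among 14 KLF and SP factors, 4 rose and 2 fell, and 1 fell without the third control library. KLF4, a factor that restrains B cell proliferation, went from 0.1, 0.362 and 0 to 1.09, 0.977 and 1.73 CPM (log2 fold change 3.08, SE 0.64, edgeR adjusted p = 0.00033), and KLF6 from 60.2, 56.9 and 59.6 to 77.2, 84.1 and 99.8 CPM. KLF2, which keeps B cells in the follicle, stood at 20.7, 23.1 and 29.5 and 17, 19.8 and 25.8 CPM with overlapping groups (edgeR adjusted p = 0.337), and it passed as lower without the third knockdown library (edgeR adjusted p = 0.0356).

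Of 36 homeobox factors, 10 rose and 7 fell. CUX2 went from 34, 35.3 and 22.9 to 10.7, 8.47 and 8.6 CPM (log2 fold change -1.75, SE 0.14, edgeR adjusted p = 1.33e-11), and LHX2, a factor of brain and skin, from 4.3, 4.35 and 3.94 to 0.656, 0.217 and 0.31 CPM. MEIS2, a partner of HOX proteins, rose by 0.60. Of 20 SOX, FOX and GATA factors, 6 rose and 5 fell, with FOXO3 rising from 109, 111 and 107 to 189, 187 and 173 CPM while FOXO1 fell. Of 28 basic helix-loop-helix factors and their inhibitors, 9 fell and 7 rose. LYL1, a factor of blood stem cells, fell from 13.9, 18.8 and 14.7 to 4.59, 5.54 and 3.64 CPM and TFEC from 25.9, 30.1 and 28.2 to 5.8, 5.86 and 5.19 CPM, while MXD4, an antagonist of MYC, rose from 11.5, 11.1 and 9.79 to 29.5, 22.8 and 26.9 CPM (log2 fold change 1.29, SE 0.12, edgeR adjusted p = 3.11e-10). MYC itself was at 42.4, 37.7 and 51.2 and 38, 38 and 45.6 CPM with overlapping groups (edgeR adjusted p = 0.585).

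Several metabolic lists had more members lower than higher. So did the genes with a mean log2 CPM above 7, of which 35% were lower and 11.9% higher. The part of expression level in the metabolic counts was not tested. Of 55 one-carbon, nucleotide and amino acid genes, 24 fell (43.6%) and 5 rose (9.1%), against 16.2% and 15.1% of all genes. Their median log2 fold change was -0.17. SHMT2, which feeds mitochondrial one-carbon units, fell from 484, 472 and 512 to 358, 340 and 328 CPM (log2 fold change -0.52, SE 0.056, edgeR adjusted p = 1.05e-08) and GLUL, glutamine synthetase, from 60.1, 56.3 and 73.3 to 37.2, 38.1 and 40 CPM (log2 fold change -0.71, SE 0.079, edgeR adjusted p = 1.74e-08). CBS, which starts the transsulfuration of homocysteine, was an exception and rose from 18, 16.1 and 18.3 to 54.5, 45.9 and 53.8 CPM (log2 fold change 1.56, SE 0.09, edgeR adjusted p = 4.36e-15). The 5 higher genes were 2 without the first control library and 3 without the first or without the third knockdown library. Of 34 genes of the TCA cycle and pyruvate use, 14 fell (41.2%) and 3 rose (8.8%), with a median of -0.20. IDH2 went from 367, 371 and 410 to 287, 274 and 261 CPM (log2 fold change -0.48, SE 0.061, edgeR adjusted p = 1.99e-07) and PDHA1, a subunit of pyruvate dehydrogenase, fell by 0.47 and PCK2 by 0.81.

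Of 42 antioxidant and NRF2-related genes, 13 fell and 7 rose. GPX1, a glutathione peroxidase, fell from 25.3, 22 and 20.9 to 10.5, 8.79 and 10.6 CPM (log2 fold change -1.17, SE 0.11, edgeR adjusted p = 8.98e-10) and MGST3 rose from 17, 16.5 and 18 to 35.8, 30.1 and 36.1 CPM (log2 fold change 0.99, SE 0.10, edgeR adjusted p = 1.54e-09). Of 56 glycosyltransferases, 16 rose and 10 fell, and without the first control library 6 fell. ST3GAL5, which makes the ganglioside GM3, rose from 17.6, 22.2 and 19.6 to 61.5, 59.7 and 61.2 CPM (log2 fold change 1.62, SE 0.081, edgeR adjusted p = 1.89e-16), and GALNT6, which starts O-glycans, from 3.8, 3.5 and 4.18 to 15.5, 12.3 and 13.9 CPM. Of 182 solute carriers, 30 rose and 25 fell, shares close to those of all genes. SLC7A5, a transporter of large neutral amino acids, rose from 600, 528 and 507 to 964, 985 and 1030 CPM (log2 fold change 0.86, SE 0.057, edgeR adjusted p = 1.23e-13) and SLC16A3, a lactate exporter, fell from 9.8, 10.4 and 12.3 to 2.73, 2.93 and 2.17 CPM. SLC37A3 rose by 1.83 and SLCO4A1 fell by 1.09. Of 26 ABC transporters, 5 rose and 1, TAP1, fell. ABCG1 and ABCA3, lipid exporters, rose from 15.8, 15.2 and 15.6 to 44.3, 40.4 and 37.9 CPM and from 4.6, 5.31 and 3.34 to 9.73, 8.79 and 8.65 CPM.

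Of 81 autophagy and lysosome genes, 18 fell and 13 rose. CTSZ, a lysosomal protease, went from 28.6, 25 and 21.5 to 5.69, 6.95 and 7.23 CPM (log2 fold change -1.89, SE 0.14, edgeR adjusted p = 1.9e-12), and WIPI2, a phosphoinositide effector of autophagosome formation, fell by 0.80. ULK1, the kinase that starts autophagy, rose from 46.7, 44.7 and 45.4 to 84.2, 88.6 and 81.4 CPM (log2 fold change 0.89, SE 0.067, edgeR adjusted p = 3.05e-12). The groups did not overlap for these 3 genes.

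Cell cycle genes showed no common direction, and DNA repair genes seldom passed the test. Of 45 cyclins, CDKs and CDK inhibitors, 10 rose (22.2%) and 7 fell (15.6%), against 15.1% and 16.2% of all genes. The share that fell was thus close to that of all genes. CCND1 fell by 0.33 on the log2 scale (edgeR adjusted p = 5.31e-05), and CDK1 by 0.31. CDK14, a kinase that works with cyclin Y, rose from 21.1, 19.7 and 18.3 to 33.4, 30.4 and 31.5 CPM (log2 fold change 0.68, SE 0.10, edgeR adjusted p = 1.23e-06), and the inhibitor CDKN1C by 0.38. Of 57 DNA repair genes, 4 rose and 3 fell, below the shares of all genes. Leaving out single DMSO libraries moved both of these counts by over 1.5 times, to 2 higher (without knockdown library 1 or 3 or control library 1 or 3) and 1 lower (without knockdown library 3 or control library 2).

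Noncoding RNA rows differed by class. Of 125 rows of small noncoding RNA, 8 rose and 7 fell, and MIR142, a microRNA gene of blood cells, fell by 0.49 on the log2 scale. Of 35 snoRNA host and nuclear long noncoding RNAs, 6 rose and 10 fell, and 6 fell without the third knockdown library or without the second control library. H19, an imprinted long noncoding RNA of fetal tissue, went from 0.2, 0.121 and 0.119 to 4.16, 2.93 and 3.99 CPM (log2 fold change 4.53, SE 0.47, edgeR adjusted p = 4.8e-09). MALAT1 rose by 0.30. Of 56 histone genes, 3 rose and 9 fell, and 5 fell without the third knockdown library. H1FX, a linker histone, rose from 473, 449 and 489 to 747, 680 and 700 CPM (log2 fold change 0.59, SE 0.077, edgeR adjusted p = 3.02e-07). Histone genes of the replication clusters end without a poly(A) tail, so this assay samples them poorly.

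Markers of other cell types were at low levels, and those of T and NK cells were lower in knockdown libraries. Of that list, 5 of the genes were tested and all 5 fell, from a sum of 29.6 to 32.7 CPM in control libraries to 5.9 to 6.73 CPM in knockdown libraries. With the filter at 5 CPM, only 2 were tested and both fell. CD3G stood at 16.2, 15.8 and 15.4 CPM in control and 1.31, 2.06 and 1.55 CPM in knockdown libraries, and CD4 went from 2.5, 1.45 and 1.79 to 0.219, 0.76 and 0.266 CPM. Of the defining genes of monocytes, 0 were tested. For erythroid cells 1 gene was tested and did not pass, at 2.42 to 3.82 CPM in control and 1.86 to 3.19 CPM in knockdown libraries. The sum of the 2 fibroblast and epithelial genes tested was 22.5 to 27.1 CPM and 18.4 to 20.5 CPM, and 1 of them fell. The part of these markers in the falls of B cell antigens was not tested.

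**Figure D4:**
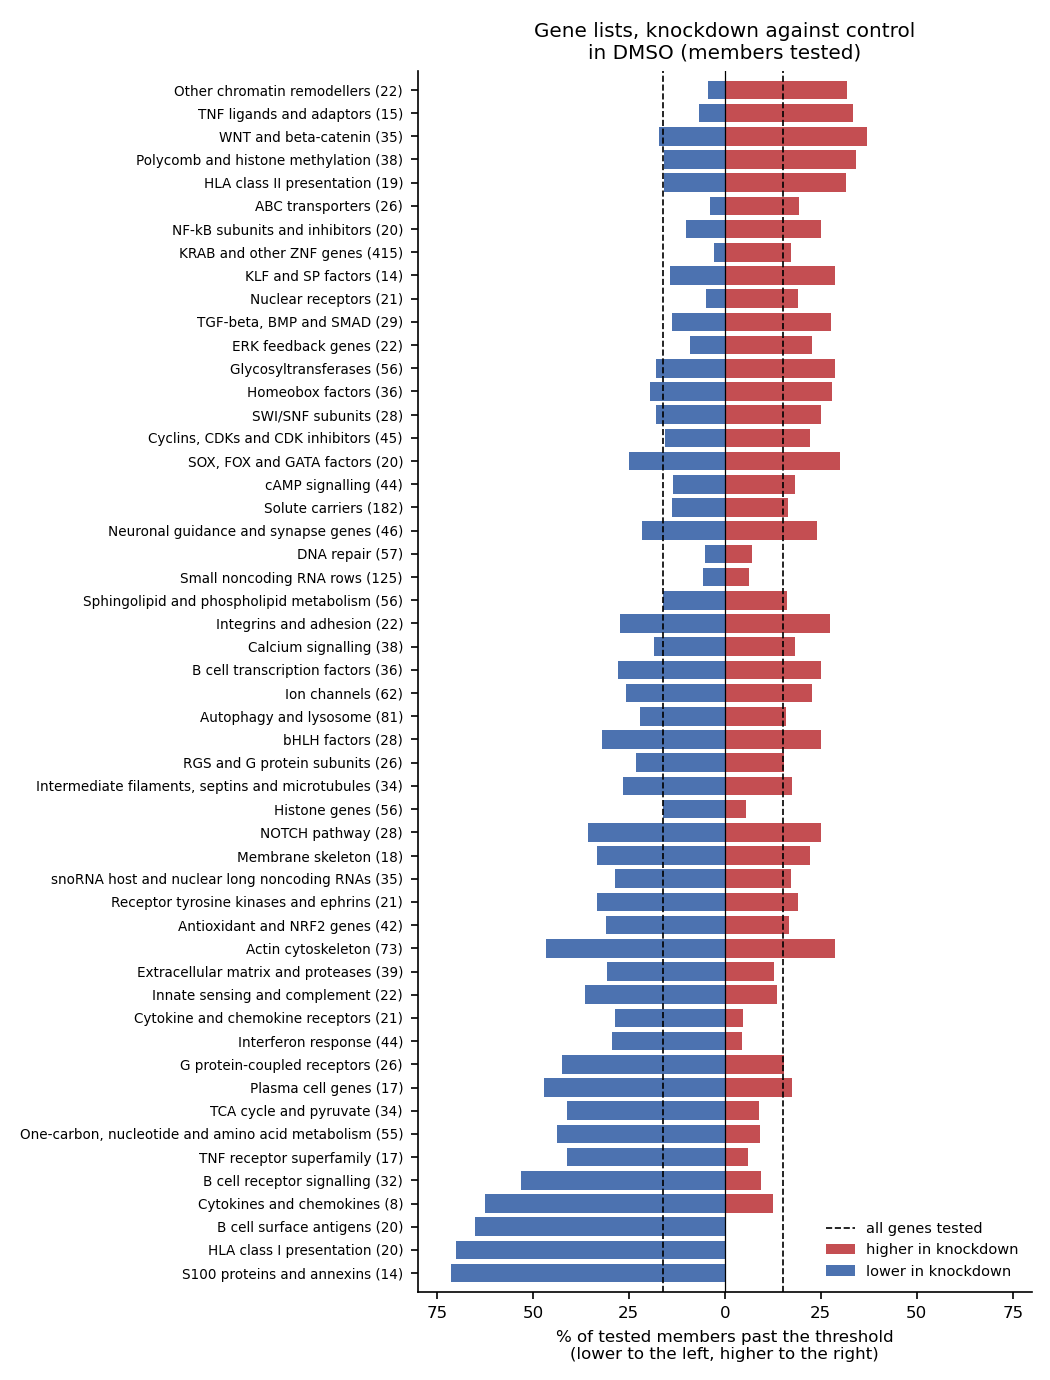
Share of the tested members of the gene lists shown that were past an adjusted p of 0.05 in knockdown against control in DMSO (horizontal axis, lower to the left in blue, higher to the right in red), with the number tested in parentheses and at least 8 tested members per list. Dashed lines mark all genes tested (16.2% lower, 15.1% higher); S100 proteins, HLA class I and B cell surface antigens reach furthest to the left.

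The effect of knockdown was also measured in the 6 libraries grown with ibrutinib plus venetoclax, which hold none of the samples contrasted in DMSO. Both contrasts came from 1 fit of all 12 libraries and share its filter, scaling and estimate of the spread. Of the 325 genes at least 2-fold higher in DMSO, 317 had the same sign under drug (97.5%) and 270 passed the test there (83.1%). Of the 431 genes at least 2-fold lower, 422 had the same sign (97.9%) and 377 passed (87.5%). The shares that passed in the same direction were lower for all 1899 higher and all 2041 lower genes, at 71.3% and 74.1%. Among all genes tested, 14.8% were higher and 16.3% lower under drug. The medians of the genes higher at least 2-fold were 1.42 in DMSO and 1.35 under drug, and those of the lower genes -1.55 and -1.54. In log2 fold changes under drug, GYPC had -4.04, S100A4 -3.35, OSR2 3.87, CTTN 2.44, MEF2C 1.56 and B2M -1.19. The HLA class I list had a median of -0.61 under drug and -0.62 in DMSO, and the B cell surface list -0.88 and -0.61. A test of the difference between treatments was past the threshold for 3 of 12602 genes (0.0238%). These were the ribosomal RNA rows RNA28S5 and RNA18S5 and the long noncoding RNA NEAT1, none of which changed 2-fold in DMSO (log2 fold changes of 0.20, 0.17 and -0.35).

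**Figure D5:**
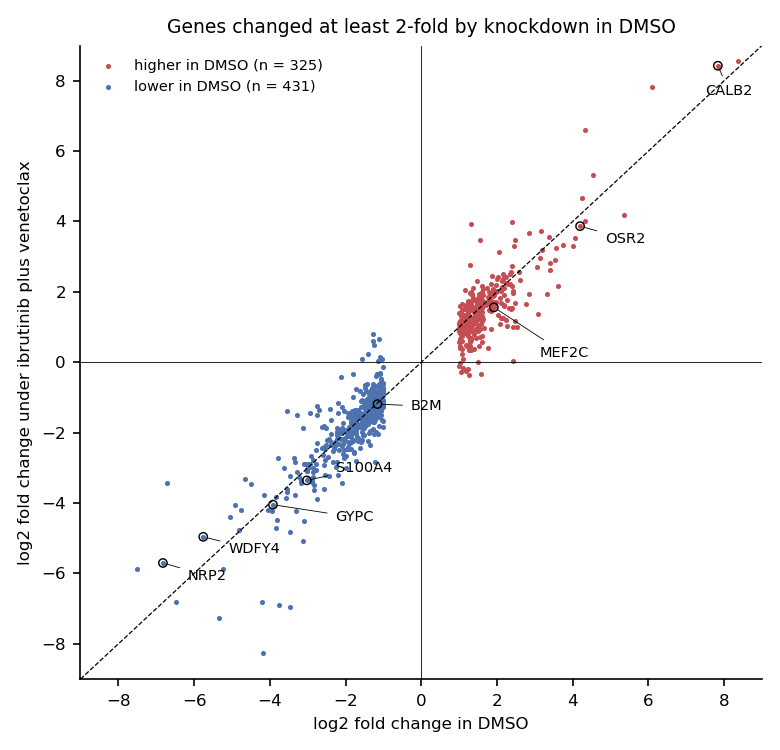
Log2 fold change of knockdown under ibrutinib plus venetoclax (vertical axis) against that in DMSO (horizontal axis) for the 325 genes at least 2-fold higher (red) and the 431 at least 2-fold lower (blue) in DMSO, with a dashed line of equal values. Points follow the line in both directions, and 317 and 422 of them keep their sign; fitted values of genes with 0 counts in a group (CALB2, NRP2) depend on the prior count.

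Promoters of the genes that rose and fell were compared by their letters, using RefSeq promoters of GRCh38.p14 from 250 bases before to 50 after the start for protein-coding genes. A promoter was found for 8779 of 10640 such genes tested (82.5%), 81.5% of the higher and 81.8% of the lower genes. The median number of CpG dinucleotides was 28 in promoters of genes that rose and 26 in those of genes that fell or did not pass. Median GC content was 67.7%, 65.3% and 64.7% in these 3 sets. Letters of the interferon element core were in 1.26% of promoters of genes that rose, 3.56% of those that fell and 2.67% of all tested. PU.1 letters, GAGGAAGT on either strand, were in 1.39%, 3.23% and 2.51%, and the related ETS letters CCGGAAGT in 5.86%, 8.73% and 9.84%. The narrowed NF-kB letters were in 6.97%, 7.05% and 6.60%. These shares are descriptions, without a test, and they say nothing of which factors were bound.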

How the data were processed

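RNA from 12 samples of the Z-138 line was measured, and the 6 DMSO samples are compared here. Per the labels' protocols, the Lexogen QuantSeq 3' mRNA kit was used on RNA from Qiagen RNeasy columns. Per the submitters' processing notes, bcl2fastq 2.17.1.14, HISAT2, HTSeq and build hg19 were used, and neither annotation release nor strand setting is named. Raw counts per gene, without normalization, were deposited by the authors in 1 table. Column names gave the samples. For control under drug replicate 1 the column names no treatment and was assigned by elimination.

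Genes were kept by edgeR's filterByExpr (minimum count 10, minimum total 15), which removed 1218. Counts were scaled by TMM, and CPM values use these scaled library sizes. All 12 libraries were fitted in a quasi-likelihood model of the 4 groups in edgeR 4.0.16 (R 4.3.3), with 8 residual degrees of freedom, and two-sided p-values were adjusted by Benjamini-Hochberg over the 12602 genes tested. The SE is the log2 fold change divided by the square root of F. The model was also tested on simulated data. Alternatives used DESeq2 1.42.0 and limma 3.58.1 among 20 settings. Ratios of genes with 1 to 3 counts in a group carry exact 95% counting intervals, and groups with 0 counts are set at 3 counts.

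Named were SMARCA4, the 15 largest changes in each direction at a mean log2 CPM of at least 3 without overlap, genes under 1 CPM in 1 group and at least 5 CPM in the other (up to 8 per direction), and for each list up to 4 members with the smallest adjusted p and any member of lists of at most 35. The comparison and lists were chosen with earlier results of these data known. GAPDH, SPI1, MEF2C, IKZF1, POU2AF1, EBF1, ISG15, MEIS2, ROR1, TCF7, TLE4, WNT10A, PDE4D, NRP2, NEAT1, RNA18S5 and RNA28S5 were named after their values were seen. Motif letters were also chosen then. Promoters and microRNAs come from RefSeq tables of GRCh38.p14 by symbol. Some genes named by the rule and some lists are not reported here.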

Additional observations from a re-analysis of the deposited data

How the results depend on the processing

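Across 20 other settings, 0 of 242 genes chosen by size or as leading list members reversed direction where tested. A minimum change of 2-fold (edgeR's glmTreat) left 284 genes past the threshold, 102 higher and 182 lower, and 143 of the 242 no longer passed. Under each other setting at most 6 of those tested lost their call, but the filter at 5 CPM in 3 libraries tested only 222 of them and the fits of the 6 DMSO libraries 240. That filter left 169 genes at least 2-fold higher and 216 at least 2-fold lower, with 9561 genes tested. DESeq2's Wald test called 1582 higher and 1780 lower, limma-voom 1965 and 2120, and library totals without scaling factors 2063 and 1854. Leaving out each DMSO library gave 3218 to 3528 genes past the threshold and kept 77.4% to 85.9% of all calls with their direction. Small changes whose calls single libraries ended were mostly not named in the text, so the named genes are no measure of stability. PAX5 also did not pass in DESeq2 (adjusted p = 0.0655) or with library totals (edgeR adjusted p = 0.0785). Short counts of list members moved by over 1.5 times elsewhere too. DESeq2 gave 1 higher interferon gene, 2 higher DNA repair genes, 3 higher one-carbon genes, 3 higher and 1 lower ERK feedback genes and 4 lower histone genes. Limma-voom gave 4 higher interferon genes. With the deepest library thinned, 2 TNF receptors and 2 ERK feedback genes were higher. With the filter at 5 CPM, which tests fewer members, 4 of 40 small noncoding RNA rows and 5 of 32 histone genes were lower. Same-numbered libraries deviated together weakly at most (correlations 0.027, 0.067 and 0.079, and from -0.094 to 0.035 for other pairs). These values cannot settle whether numbers pair samples, and no label tells. With the replicate block, 3822 genes passed in 12 libraries and 4308 in the 6 DMSO libraries, against 3940 and 4038 without it. Under these fits, 0 of the 242 and 0 of the 240 genes tested lost their call. The second of these fits gave 4 higher interferon genes, 1 higher HLA class I gene, 6 lower DNA repair genes and 2 lower remodellers. Without the deepest library and the library assigned by elimination, a setting chosen after seeing the data, 3160 genes passed. With 3 libraries per group and between 7279503 and 22528537 counts each, genes under 1 CPM have few counts, and small changes in them were not detectable at this depth.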
